A study of Mus musculus with 9 samples.

Results

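The 10 fibroblast growth factor genes described here are Fgf1, Fgf2, Fgf7, Fgf8, Fgf9, Fgf10, Fgf12, Fgf13, Fgf16 and Fgf18, compared between Ezh2-deficient and wild-type mouse hearts. They were chosen by gene family, as a list of names, out of 19935 genes that the array table names. Earlier results of these data were known when the list was made, and 12 other FGF genes on the array are read separately. Where a gene has several single-symbol probe sets the one of highest mean in the 9 hearts stands for it, and each of the 10 has just 1. Adult mice of mixed C57BL/6 background gave right ventricle together with septum, and each animal was measured on 1 Affymetrix array. The 5 hearts called wild type had floxed Ezh2 (Ezh2f/f) without Cre by their genotype field, whereas their titles read f/wt, and which holds is not known here. The 4 Ezh2-deficient hearts were Ezh2f/f;Mef2cAHF::Cre, with Cre under a Mef2c enhancer of the anterior heart field. It acts in embryonic progenitors of the right ventricle, septum and outflow tract, and the tissue also holds cells outside this lineage. Both groups carry floxed Ezh2, and an effect of Cre itself cannot be told apart from the loss of Ezh2. The labels name no litter, batch or sex.

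Most fibroblast growth factors (FGFs) are secreted, bind heparan sulfate in the matrix and activate receptor tyrosine kinases, which signal through the Ras and MAP kinase pathway and induce feedback inhibitors of the Sprouty and Spred families. In the embryo Fgf8 and Fgf10 are made by second heart field progenitors, and Fgf9, Fgf16 and related ligands from the epicardium and endocardium act on growth of the myocardium. Fgf12 and Fgf13 belong to a separate branch that is not secreted and binds the cytoplasmic tail of voltage-gated sodium channels. Ezh2 is a histone methyltransferase of the Polycomb group, which acts mainly at genes with promoters rich in CG dinucleotides.

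Values are log2 expression values made with RMA, which adjusts background, brings arrays to a common distribution and combines probes into 1 value per probe set. A difference is the Ezh2-deficient mean less the wild-type mean on that scale. Array medians lay between 7.19 and 7.24. The Ezh2 probe set itself read 8.60 to 8.89 in wild-type and 8.74 to 8.98 in Ezh2-deficient hearts (difference 0.15, SE 0.07, limma adjusted p = 0.485). Where this probe set lies relative to the deleted exons is not known here, so it does not check the genotype, and groups are named as labelled. Cardiomyocyte markers were abundant in every heart, with a mean over 7 genes of 13.54 to 13.63 in wild-type and 13.38 to 13.57 in Ezh2-deficient hearts. Atrial markers were uneven although the labels name ventricle and septum, as described below for Fgf12. By 3 Y-linked genes, 1 wild-type and 2 Ezh2-deficient hearts had low values (4.84 to 5.50) and the other 6 high ones (8.64 to 9.38). In bulk tissue, fewer cells of a type and less RNA per cell cannot be told apart.

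None of the 10 genes passed the adjusted threshold of 0.05 by limma over all 28815 probe sets, where 10 probe sets, 0.0347%, passed (0.0243% higher and 0.0104% lower in Ezh2-deficient hearts). At an unadjusted p under 0.05 there were 3 of the 10, namely Fgf9 and Fgf13, lower in Ezh2-deficient hearts, and Fgf18, higher. Over all probe sets 10.7% were past that value, and over all named genes, each read at 1 probe set, 11.5%. The same 3 genes were those whose groups did not overlap, against 3.71% of all probe sets (1.79% higher and 1.91% lower). Among the 19935 named genes 418 were higher and 436 lower with groups apart. Of the 12 other FGF genes measured, 1 was at an unadjusted p under 0.05 and 0 had groups apart. The median difference over the 10 genes was -0.10, and over all named genes -0.003. The former was -0.006 without Ezh2-deficient heart 1, -0.012 within the samples whose titles hold an x and -0.028 with Y-linked genes as a covariate. The mean was lower in Ezh2-deficient hearts for 8 of the 10 genes and higher for 2, Fgf7 and Fgf18. Of the 19935 named genes, 10296 had a lower mean and 9639 a higher one.

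**Figure D1:**
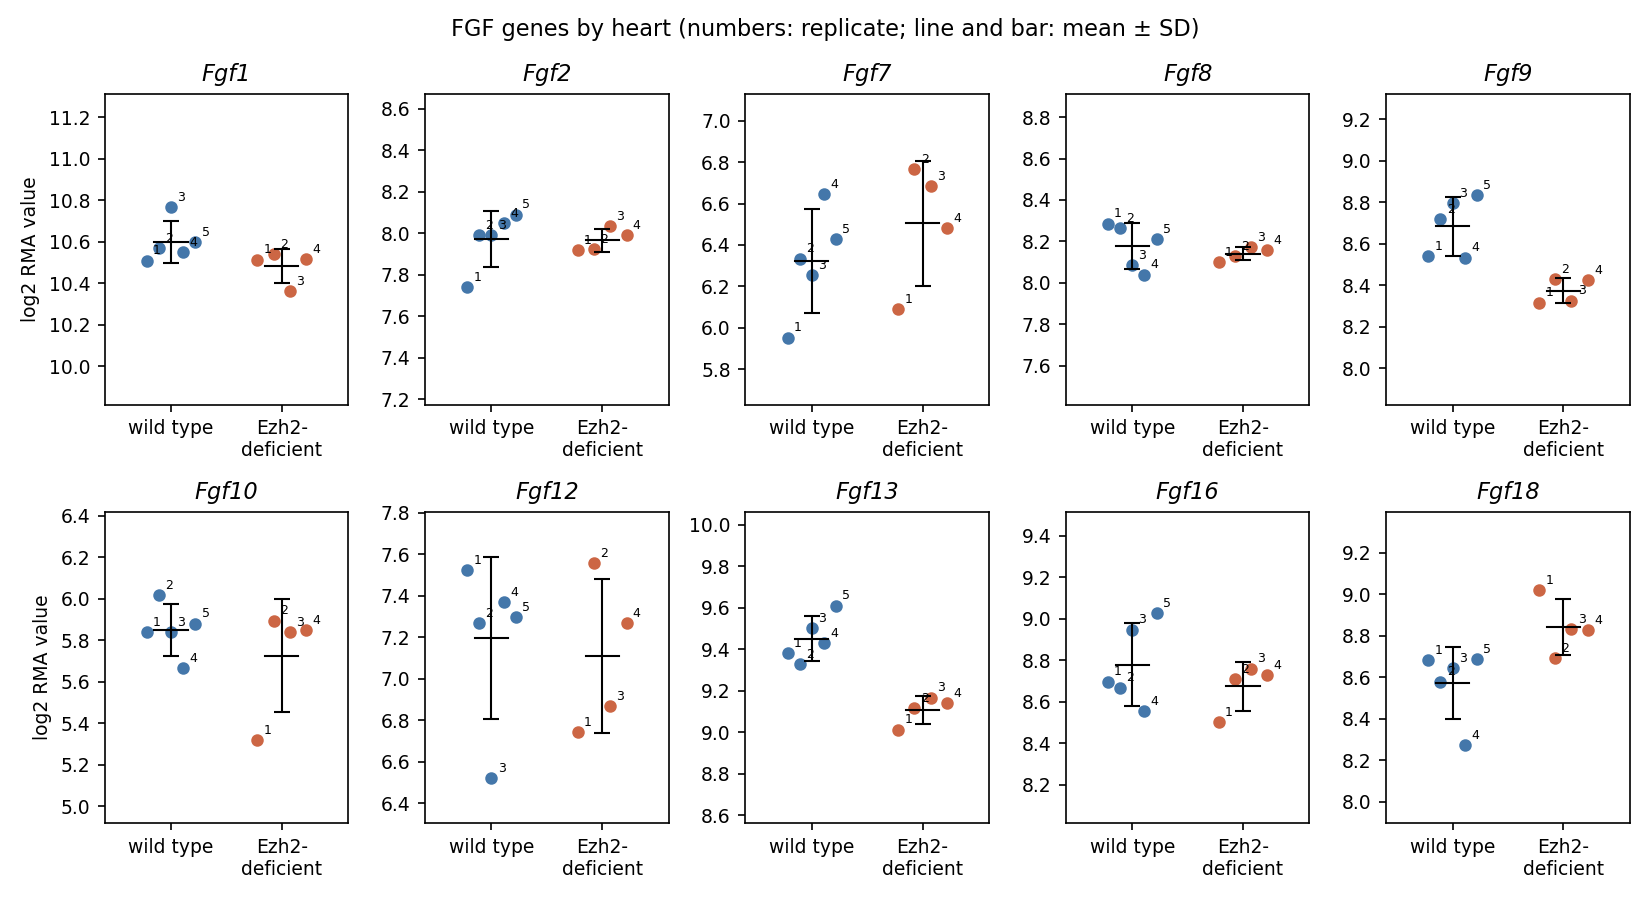
Log2 RMA value of each FGF gene in the 5 wild-type (blue) and 4 Ezh2-deficient (orange) hearts, with the replicate number beside each point and the mean ± SD in black; every panel spans 1.5 log2 units. The groups stand apart for Fgf9, Fgf13 and, by a gap of 0.007, Fgf18, and Fgf12 has the widest spread in wild-type hearts (SD 0.39).

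The promoter sequence of the 3 genes whose groups stood apart is shown first, with its CG content. Whether that content bears on their differences was not tested. The 250 bases before the annotated start are given from RefSeq (build GRCm38.p6), 5′ to 3′ on the strand of the gene, with each CG dinucleotide in capitals. Fgf9 lies on the plus strand (chr14:58072436-58072685). Fgf18 lies on the minus strand (chr11:33147401-33147650). Fgf13 is on the minus strand of the X chromosome and has 4 annotated starts, of which those with the fewest (chrX:59585573-59585822) and the most CG dinucleotides (chrX:59567349-59567598) are shown.
Fgf9: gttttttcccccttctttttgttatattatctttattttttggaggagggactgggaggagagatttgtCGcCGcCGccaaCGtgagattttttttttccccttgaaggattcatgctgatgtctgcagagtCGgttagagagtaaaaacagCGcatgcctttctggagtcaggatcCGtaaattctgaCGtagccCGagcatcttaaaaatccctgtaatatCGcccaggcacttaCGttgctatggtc
Fgf18: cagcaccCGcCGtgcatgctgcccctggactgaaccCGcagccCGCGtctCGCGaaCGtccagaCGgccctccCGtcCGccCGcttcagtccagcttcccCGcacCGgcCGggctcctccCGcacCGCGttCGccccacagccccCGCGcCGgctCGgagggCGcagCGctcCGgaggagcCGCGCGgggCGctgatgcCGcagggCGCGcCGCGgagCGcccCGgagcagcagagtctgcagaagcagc
Fgf13, start 1: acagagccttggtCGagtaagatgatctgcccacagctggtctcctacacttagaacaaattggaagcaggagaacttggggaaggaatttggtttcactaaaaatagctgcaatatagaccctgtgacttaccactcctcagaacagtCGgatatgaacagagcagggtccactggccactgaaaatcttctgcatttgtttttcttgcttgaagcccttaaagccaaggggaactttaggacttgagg
Fgf13, start 2: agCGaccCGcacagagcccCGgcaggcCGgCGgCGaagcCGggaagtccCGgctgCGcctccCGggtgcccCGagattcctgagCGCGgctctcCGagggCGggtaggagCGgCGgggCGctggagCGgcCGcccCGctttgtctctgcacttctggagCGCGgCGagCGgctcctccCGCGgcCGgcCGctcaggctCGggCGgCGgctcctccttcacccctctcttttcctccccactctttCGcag

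The motif counted was CG, which reads the same on both strands. The Fgf18 window held 37 CG dinucleotides, a number reached by 2.2% of 32851 windows of this length, with a median of 6. The Fgf9 window held 11, a number reached by 35.6% of windows. The 4 Fgf13 windows held 2, 33, 6 and 31, and the array value does not show which of the starts was used. Among the other members with a window, Fgf2 had 20, Fgf7 had 6, Fgf10 had 8 and the 4 windows of Fgf12 had 18, 24, 25 and 20. The windows of the members thus ran from few CG dinucleotides to many, also between the starts of 1 gene. These counts describe the reference sequence, and no chromatin mark was measured here.

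Fgf13, the main sodium channel-binding FGF of the adult mouse ventricle, had the smallest p of the 10. It read 9.38, 9.33, 9.50, 9.43 and 9.61 in wild-type hearts 1 to 5 and 9.01, 9.12, 9.17 and 9.14 in Ezh2-deficient hearts 1 to 4. The highest Ezh2-deficient heart lay 0.16 below the lowest wild-type heart. The means were 9.45 ± 0.11 (SD, n = 5) and 9.11 ± 0.07 (SD, n = 4), a difference of -0.34 (SE 0.06, 95% interval -0.48 to -0.20) and thus 0.789 of the wild-type level. The limma test gave p = 0.000294 and an adjusted p = 0.125, and an exact two-sided permutation test p = 0.00794, the smallest that 126 assignments of the samples allow. Sample titles hold an e or an x, whose meaning is not stated and which was taken as a possible batch. The difference was -0.28 within e (2 against 2 hearts) and -0.37 within x (3 against 2). Because Fgf13 is X-linked, hearts were also compared within the classes of Y-linked values. The difference was -0.34 in hearts with low Y-linked values, where 1 stood against 2, and -0.33 in the rest, where 4 stood against 2. The same split of Fgf16, the other X-linked gene tested in this way, gave 0.08 and -0.12.

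Fgf9, a secreted ligand for which the embryonic myocardium is a target, showed the next smallest p. It read 8.54, 8.72, 8.80, 8.53 and 8.84 in wild-type hearts and 8.32, 8.43, 8.33 and 8.42 in Ezh2-deficient hearts, with a gap of 0.10 between the groups. The wild-type mean was 8.68 ± 0.14 (SD, n = 5) and the Ezh2-deficient mean 8.37 ± 0.06 (SD, n = 4). The difference was -0.31 (SE 0.07, 95% interval -0.47 to -0.15; limma p = 0.00173, adjusted p = 0.182; exact permutation p = 0.0238), or 0.806 of the wild-type level. Within e it was -0.26 and within x -0.34. Fgf16, its closest relative on the list and also X-linked, read 8.55 to 9.03 in wild-type and 8.50 to 8.76 in Ezh2-deficient hearts (difference -0.11, 95% interval -0.33 to 0.12, adjusted p = 0.746). The 2 groups of Fgf16 overlapped in part. Wild-type hearts 3 (8.95) and 5 (9.03) lay above every Ezh2-deficient heart, and Ezh2-deficient heart 1 (8.50) lay below every wild-type heart.

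Fgf18, a secreted ligand of the same subfamily as Fgf8 and best known for skeletal and lung development, was the gene of the 3 that read higher in Ezh2-deficient hearts. It read 8.68, 8.58, 8.65, 8.27 and 8.69 in wild-type hearts and 9.02, 8.69, 8.83 and 8.83 in Ezh2-deficient hearts. The groups were apart by 0.007 alone, and they overlapped after a further quantile normalization or after centring on array medians, which left 2 of the 10 genes with groups apart. Wild-type heart 4 was the low one, and Ezh2-deficient heart 1 the high one. The means were 8.57 ± 0.17 (SD, n = 5) and 8.84 ± 0.13 (SD, n = 4), a difference of 0.27 (SE 0.10, 95% interval 0.06 to 0.48; limma p = 0.0178, adjusted p = 0.356; exact permutation p = 0.00794), or 1.21-fold. It was 0.20 without wild-type heart 4 and 0.21 without Ezh2-deficient heart 1, where the unadjusted p was 0.0592. Fgf8, the embryonic progenitor ligand, read 8.04 to 8.29 in wild-type and 8.10 to 8.17 in Ezh2-deficient hearts, so that the Ezh2-deficient hearts lay wholly inside the wild-type range (difference -0.04, 95% interval -0.17 to 0.09).

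**Figure D2:**
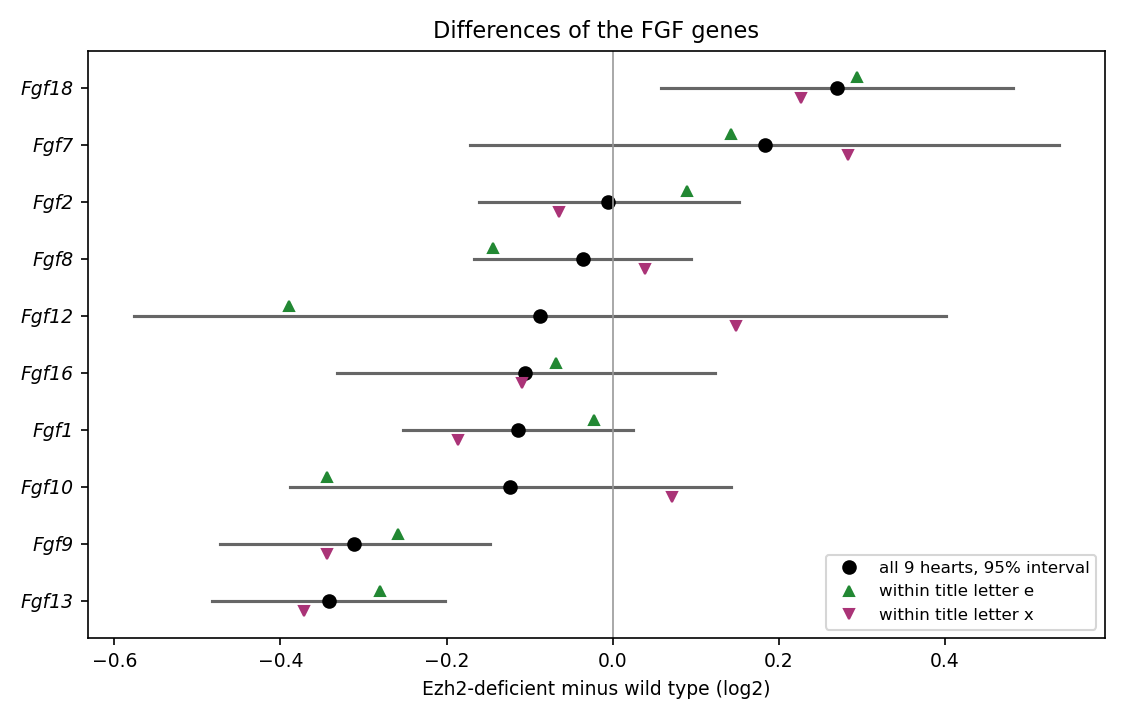
Difference between Ezh2-deficient and wild-type hearts (log2) for the 10 FGF genes, ordered by size, with the limma 95% interval (grey line) and the difference within title letter e (triangle up) and x (triangle down). The intervals of Fgf9, Fgf13 and Fgf18 lie on one side of 0, while the letters differ in sign for Fgf2, Fgf8, Fgf10 and Fgf12.

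Among the other secreted ligands the groups overlapped. Fgf1, which lacks a secretion signal and binds all FGF receptors, read 10.51 to 10.77 in wild-type and 10.36 to 10.54 in Ezh2-deficient hearts (difference -0.11, SE 0.06, 95% interval -0.25 to 0.02, adjusted p = 0.551; exact permutation p = 0.0794). Ezh2-deficient heart 3 was the lowest of the 9 and wild-type heart 3 the highest. Fgf2, the basic FGF stored in the matrix, read 7.74 to 8.09 and 7.92 to 8.03, with a difference of -0.005 and an interval of -0.16 to 0.15. That interval does not reach the differences seen for Fgf13 and Fgf9.

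Fgf7 and Fgf10, mesenchymal ligands of the epithelial form of Fgfr2, varied more between hearts than between groups. Fgf7 read 5.95 to 6.65 in wild-type and 6.09 to 6.77 in Ezh2-deficient hearts (difference 0.18, SE 0.16, 95% interval -0.17 to 0.54). Replicate 1 was the lowest in either group. Fgf10, which is expressed by the progenitors in which this Cre acts, read 5.67 to 6.02 in wild-type hearts and 5.32, 5.90, 5.84 and 5.85 in Ezh2-deficient hearts. Ezh2-deficient heart 1 stood below all others, and the difference of -0.12 (95% interval -0.39 to 0.14, adjusted p = 0.745) became 0.01 without it. Fgf10 was dim enough to be left out by a filter on low mean values, and 3 hearts shared the value 5.84.

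Fgf12, the other channel-binding member, had the widest spread of the 10 genes in both genotypes. It read 7.52, 7.27, 6.52, 7.37 and 7.30 in wild-type hearts and 6.74, 7.56, 6.87 and 7.27 in Ezh2-deficient hearts. Wild-type heart 3 and Ezh2-deficient hearts 1 and 3 were low, and the other 6 were high. The genotypes thus overlapped in large part (difference -0.09, SE 0.22, 95% interval -0.58 to 0.40, limma adjusted p = 0.919). The 3 hearts low in Fgf12 were also the lowest in 3 of 5 atrial markers, Myl7, Myl4 and Sln. Myl7, the atrial regulatory light chain, read 11.10, 10.95, 6.97, 10.36 and 10.28 in wild-type hearts and 8.07, 11.63, 9.11 and 11.19 in Ezh2-deficient hearts. Myl4, the atrial essential light chain, read 7.89 in wild-type heart 3, 9.16 in Ezh2-deficient heart 1 and 10.20 in Ezh2-deficient heart 3, against 11.18 to 12.11 in the other hearts. The other markers of the list followed Fgf12 less closely. Bmp10 had r = 0.77 with Fgf12 and was as low in Ezh2-deficient heart 4 (5.30), where Fgf12 was high, as in Ezh2-deficient heart 1 (5.32). Nppa, the gene of atrial natriuretic peptide, had r = 0.14 and was highest of all in Ezh2-deficient heart 1 (13.61).

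Over the 9 hearts, Fgf12 and the mean of the 5 atrial markers had Pearson's r = 0.96 (exact permutation p = 8.82e-05, 0.00882 after Benjamini-Hochberg adjustment over 100 relations of 10 genes with 10 marker lists). Spearman's rho was 0.86 (exact permutation p = 0.00438, adjusted 0.101). Without the 2 hearts farthest from the median, wild-type 3 and Ezh2-deficient 1, r was 0.90, and after centring on the genotype means it was 0.99. It was 0.98 within letter e (4 hearts) and 0.97 within letter x (5 hearts), given with no test. Without Nppa, which also belongs to the fetal programme, r was 0.98. Of 19934 other genes, Myl4 (r = 0.97) and Myl7 (r = 0.96) were the most like Fgf12 over the 9 hearts, a comparison added after its values were seen. With the mean of Myl7, Myl4, Sln and Bmp10 as a covariate, a setting also chosen after seeing the data, the genotype difference of Fgf12 was -0.08 (limma adjusted p = 0.686), and the residual SD of a least-squares fit of the same form went from 0.383 to 0.0729. The atrial mean itself ran from 7.81 to 9.90 in wild-type and from 8.67 to 10.32 in Ezh2-deficient hearts, and its genotype difference was 0.15 (exact permutation p = 0.81). Among the other 9 FGF genes the p of r with the atrial list was never as small.

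**Figure D3:**
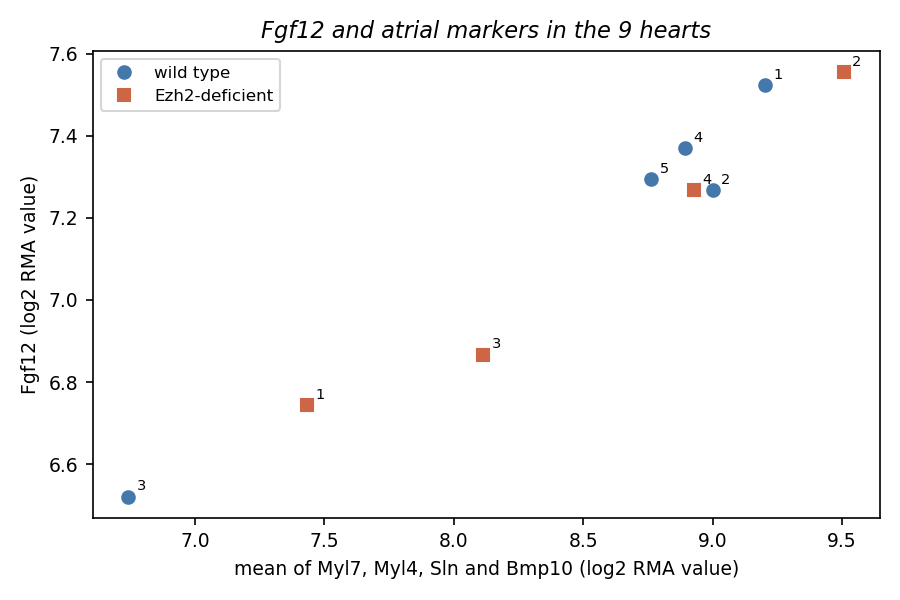
Fgf12 (vertical axis, log2 RMA value) against the mean of 4 atrial markers (horizontal axis, log2 RMA value) in wild-type (circles) and Ezh2-deficient (squares) hearts, numbered by replicate. The points of either genotype lie along 1 line (r = 0.98), with wild-type 3, Ezh2-deficient 1 and Ezh2-deficient 3 at its low end.

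Fgf9 and Fgf13 varied together, with r = 0.89 over the 9 hearts and 0.58 after centring on genotype means, as a description over hearts that share the same contrast. After centring, the pairs most alike among the 45 were Fgf13 with Fgf16 (0.86) and Fgf9 with Fgf16 (0.80). The genes most like Fgf13 over the 9 hearts were Gadd45a (r = 0.98), Hsdl2 (0.98) and Nadk2 (0.97). Those most like Fgf9 were Elmod3 (0.98), the desmosomal cadherin Dsg2 (0.97) and the mitochondrial carnitine carrier Slc25a20 (0.97). Those most like Fgf18 were Trim36 (0.97), Fam171a2 (0.96) and Kif26b (0.94). In each case 19934 genes were searched over 9 hearts, and the value is a description.

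The mean of the fibroblast markers did not overlap between the genotypes. All 10 markers had a higher mean in Ezh2-deficient hearts, as had 9639 of the 19935 named genes. Of the 10 markers, 7 were at an unadjusted p under 0.05 (5.23% of all probe sets were higher at that value). Groups were apart for 3 of them (1.79% of all probe sets were higher with groups apart), and 0 passed the adjusted threshold. Their mean per heart ran from 9.98 to 10.63 in wild-type and from 10.76 to 11.03 in Ezh2-deficient hearts. The mean of 8 endothelial markers ran from 9.80 to 10.43 in wild-type and from 10.36 to 10.52 in Ezh2-deficient hearts, with a small overlap. All 8 endothelial, all 8 macrophage and all 7 epicardial markers also had a higher mean in Ezh2-deficient hearts, with 2, 0 and 2 at an unadjusted p under 0.05. Groups were apart for 1 of the endothelial markers. Of the 8 smooth muscle and pericyte markers 7 had a higher mean, 0 of them at that p. All 7 cardiomyocyte markers had a lower one, 1 at that p and 2 with groups apart. Over all probe sets 5.45% were lower at that p and 1.91% were lower with groups apart. Over the 9 hearts the fibroblast mean had r = -0.93 with Fgf9 and -0.92 with Fgf13 (exact permutation p adjusted over the 100 relations 0.015 and 0.0337), and rho = -0.87 with either (adjusted 0.101). Without the 2 hearts farthest from the median, wild-type 5 and Ezh2-deficient 3, r was -0.88 and -0.91. The permutations ran over all 9 hearts without regard to genotype, and the fibroblast mean, Fgf9 and Fgf13 each separate the groups. These r and p-values thus include the genotype contrast and do not test a relation apart from it. With the genotype means removed, the fibroblast mean had r = -0.75 with Fgf9, -0.66 with Fgf13 and -0.11 with Fgf18. Other lists came as close to Fgf13 in that comparison, smooth muscle and pericyte markers with -0.72 and endothelial markers with -0.67. Within wild-type hearts alone (n = 5) the fibroblast mean had r = -0.82 with Fgf13 and -0.78 with Fgf9. Within Ezh2-deficient hearts alone (n = 4) r was 0.04 with Fgf13 and -0.55 with Fgf9, given with no test. The part of cell content in these differences was not tested.

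**Figure D4:**
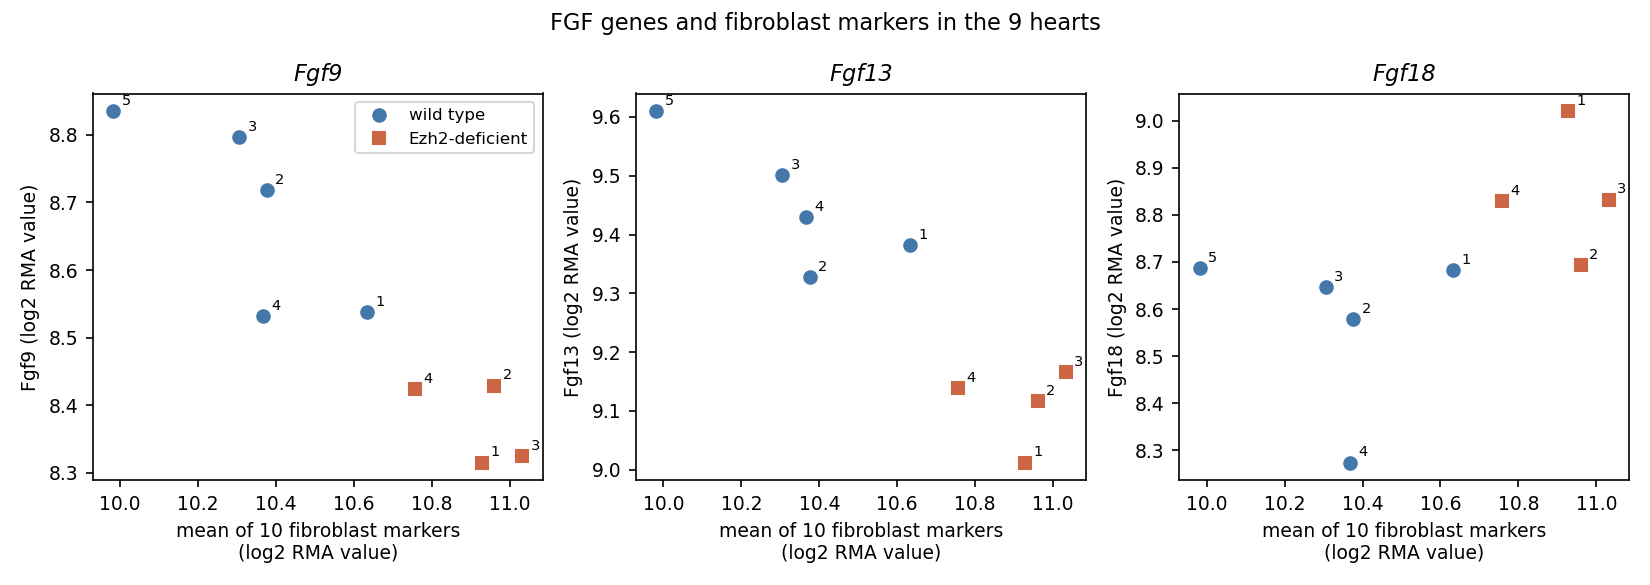
Fgf9, Fgf13 and Fgf18 (log2 RMA value) against the mean of 10 fibroblast markers in wild-type (circles) and Ezh2-deficient (squares) hearts, numbered by replicate. The genotypes do not overlap on the horizontal axis, and wild-type heart 5 has the lowest marker mean together with the highest Fgf9 and Fgf13.

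The other genes of FGF signalling were read from 6 lists with 78 of 88 genes measured, and 0 passed the adjusted threshold. At an unadjusted p under 0.05, 19 were higher and 0 lower in Ezh2-deficient hearts, whereas over all probe sets 5.23% were higher and 5.45% lower at that value. Of the 12 remaining FGF genes 1 was among them, Fgf5 (difference 0.22, SE 0.08, adjusted p = 0.396), with 0.08 in e hearts and 0.31 in x hearts. Of 7 receptors and co-receptors 2 were, Fgfr1 and Fgfr2. Fgfr1, the main FGF receptor of mesenchyme and myocardium, read 8.73 to 9.11 in wild-type and 9.13 to 9.32 in Ezh2-deficient hearts (limma: 0.27 with an SE of 0.08, adjusted p = 0.291), and the difference was 0.06 in e hearts and 0.42 in x hearts. Fgfr2 differed by 0.13 (SE 0.06), the decoy receptor gene Fgfrl1 by 0.08 (SE 0.05) and the co-receptor gene Kl by -0.12 (SE 0.06). The Fgfr2 difference was 0 in e hearts and 0.24 in x hearts. Its unadjusted limma p was under 0.05 in 11 of 21 alternative settings.

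Among 20 measured heparan sulfate carriers, their modifying enzymes and FGF carriers, 8 were higher at an unadjusted p under 0.05, with a median difference of 0.13. Over all probe sets 5.23% were higher at that p. Sdc4, a transmembrane heparan sulfate proteoglycan, read 8.71, 8.86, 9.02, 8.62 and 8.70 in wild-type hearts and 9.10, 9.60, 9.31 and 9.23 in Ezh2-deficient hearts. The groups did not overlap (difference 0.53, SE 0.11, 1.44-fold, limma adjusted p = 0.129), and e and x hearts gave 0.38 and 0.68. Sulf1, an enzyme that removes sulfate from heparan sulfate outside the cell, differed by 0.51 (SE 0.13), and the glypican genes Gpc3 and Gpc6 by 0.43 (SE 0.13) and 0.38 (SE 0.10). Gpc3 was 0.28 without Ezh2-deficient heart 3, which read 8.07 against 7.41 to 7.57 in the other Ezh2-deficient hearts, and 0.24 in e hearts. The fibroblast marker mean was higher in all 4 of these Ezh2-deficient hearts, as given above, and its part in the values of this list and the lists that follow was not tested.

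Of the 15 measured signal relay genes 2 were higher at an unadjusted p under 0.05, as were 5.23% of all probe sets. Shc1, an adaptor of receptor tyrosine kinases, differed by 0.30 (SE 0.07) and the small GTPase gene Nras by 0.17 (SE 0.06); Ptpn11 differed by 0.13 (SE 0.06) and Plcg1 by -0.10 (SE 0.05). In e hearts alone Shc1 differed by 0.13, no longer at an unadjusted p under 0.05, and in x hearts by 0.44. Targets and feedback inhibitors of FGF signalling had a median difference of 0.22, with 15 of 16 means higher. At an unadjusted p under 0.05 there were 5 genes, all higher (5.23% of all probe sets were). Among all 19935 named genes 9639 means were higher. The feedback inhibitor genes Spry1 and Spry4 differed by 0.26 (SE 0.09) and 0.39 (SE 0.15) with overlapping groups, and the ETS factor gene Etv1 by 0.30 (SE 0.09). Without wild-type hearts 4 and 5 Spry1 differed by 0.14 and Spry4 by 0.21, neither at an unadjusted p under 0.05. In e hearts alone Etv1 differed by 0.16 and Spry1 by 0.14, neither at an unadjusted p under 0.05, and in x hearts by 0.45 and 0.33. Egr1, an immediate early gene that many stimuli induce, read 6.97 to 8.23 in wild-type and 8.25 to 8.83 in Ezh2-deficient hearts (limma: 0.88 with an SE of 0.25, adjusted p = 0.263). In e and x hearts taken alone that difference was 0.50 and 1.07, and without wild-type hearts 4 and 5 it was 0.545. Many of these targets answer to other growth factors as well.

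Of 8 measured sodium channel genes, the partners of Fgf12 and Fgf13, 1 was higher at an unadjusted p under 0.05, as were 5.23% of all probe sets. Scn4b, a beta subunit of the sodium channel, read 6.72, 7.53, 7.48, 7.38 and 7.72 in wild-type hearts and 7.85, 8.31, 7.88 and 8.27 in Ezh2-deficient hearts. Every Ezh2-deficient heart lay above every wild-type heart (difference 0.71, SE 0.19, 1.64-fold, limma adjusted p = 0.239; exact permutation p = 0.0159). Scn3a, Scn2b and Scn10a differed by 0.06, -0.05 and 0.06 with overlapping groups.

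**Figure D5:**
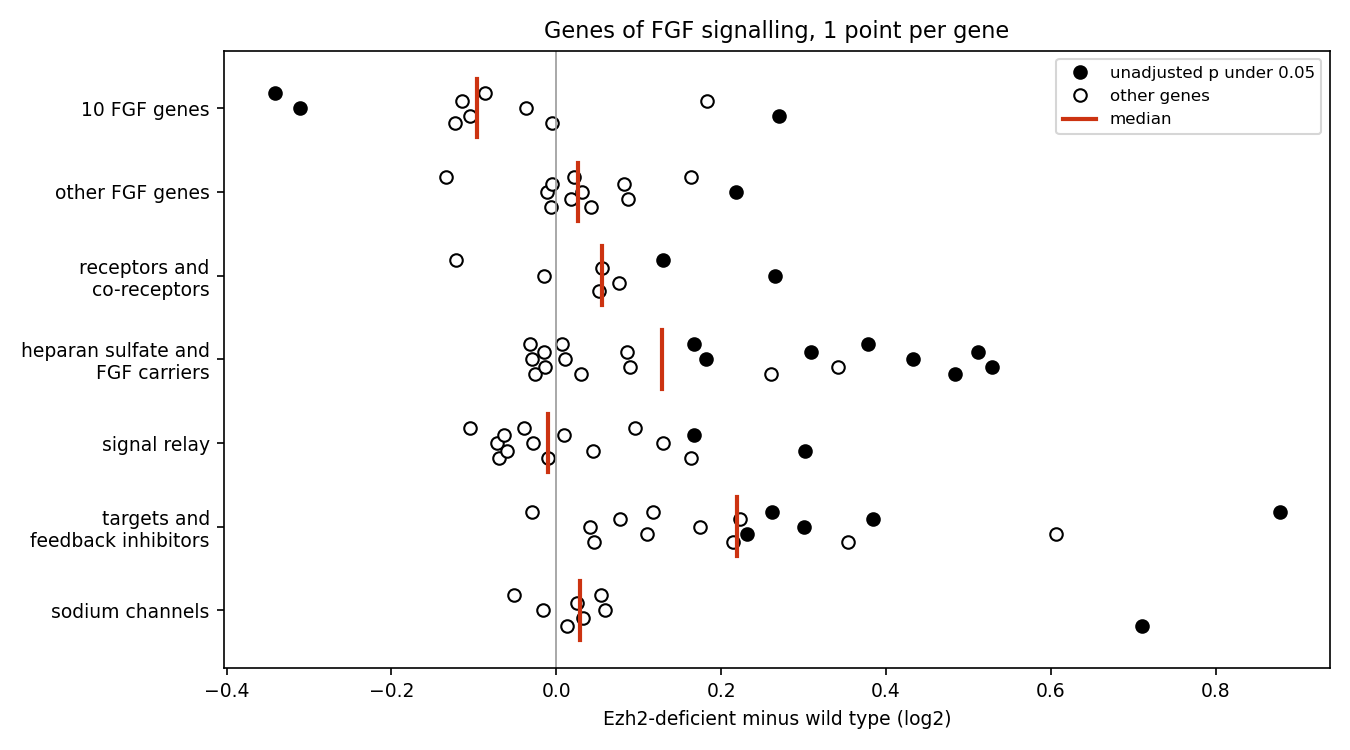
Difference between Ezh2-deficient and wild-type hearts (log2, horizontal axis) for each measured gene of the 10 FGF genes and of 6 lists of FGF signalling; filled points have an unadjusted limma p under 0.05 and red lines are list medians. Filled points lie on both sides of 0 for the 10 FGF genes and to the right of 0 in the 6 other lists.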

How the data were processed

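RNA from 9 hearts (5 wild type, 4 Ezh2-deficient) was measured, 1 array per animal. The authors deposited log2 expression values per probe set, and the submitters' processing notes name RMA and Affymetrix Power Tools; no version is given in the sources used here, and the log2 scale was read from the values. The table has no detection call. Gene symbols came from GEO's annotation of the platform (21780 of 28815 with 1 symbol, 1605 with several, 5430 with none), and symbols were updated through gene identifiers for 21689.

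Genotype was tested with limma 3.58.1 (lmFit, eBayes; R 4.3.3) over all probe sets, two-sided, with Benjamini-Hochberg adjustment and a threshold of 0.05. Single genes were also tested by exact permutation over 126 assignments. The fit was tested on simulated data. Arrays give no depth, and their number limits the precision. Members and gene lists were chosen with earlier results of these data known. From each list the 4 genes of smallest p are named, with Ezh2 and the 3 genes most like each member whose groups stood apart. Groups came from the description label; that samples are separate animals rests on the labels' count of mice. Alternatives were normalization, centring, a filter on dim probe sets, array weights, a variance trend, the title letter, Y-linked genes, probe set choice and arrays left out. Promoter windows come from RefSeq and were used for 7 of 10 members. The selection left out windows on chr18, and no window was used for Fgf1, Fgf8 or Fgf16.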

Additional observations from a re-analysis of the deposited data

Results flagged for a closer look

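In 9 of 70 groups (35 genes named by rule, 2 genotypes each) 1 heart stood apart from the others of its genotype by Dixon's criterion, which chance meets in about 1 of 20 groups. Among the FGF genes these were Fgf12 in wild-type heart 3 (6.52, next value 7.27), Fgf10 in Ezh2-deficient heart 1 (5.32, next 5.84), Fgf2 in wild-type heart 1 (7.74, next 7.99), Fgf18 in wild-type heart 4 (8.27, next 8.58), Fgf1 in Ezh2-deficient heart 3 (10.36, next 10.51), Fgf14 in Ezh2-deficient heart 3 (6.91, next 6.61) and Fgf22 in wild-type heart 4 (7.46, next 7.67). Among the other genes they were Sulf1 in Ezh2-deficient heart 4 (8.99, next 9.36) and Scn3a in wild-type heart 2 (6.09, next 6.28). All but Fgf14 were the lowest heart of their group.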

How the results depend on the processing

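Under 21 alternatives 0 of the 10 FGF genes and 0 of the 78 pathway genes passed the adjusted threshold. The smallest adjusted p was 0.0508 for Fgf13 and 0.0841 for Fgf9, both with array weights, and the largest 0.651 and 0.658. Fgf13 ran from -0.37 to -0.28 and Fgf9 from -0.35 to -0.26, with an unadjusted p under 0.05 in 21 of 21 settings. Fgf18 ran from 0.20 to 0.32, in 19 of 21. The number of members past that p was 2 to 4 in all settings. No paired analysis was possible because the labels give no replicate numbers shared by the groups.

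Calls over all probe sets numbered 17 with centred medians (10 higher), 20 without dim probe sets, 37 with array weights, 17 with the title letter as a block, 0 within letter e, 0 within letter x, 3 with the Y-linked covariate, 5 without wild-type arrays 4 and 5 and 5 with the atrial covariate added after the data were seen. They ran from 3 (leaving out Ezh2-deficient array 1, Ezh2-deficient array 2 or wild-type array 4) to 15 (without Ezh2-deficient array 4) with 1 array left out, with 5 without wild-type array 2 and 4 without wild-type array 3. Pathway genes at an unadjusted p under 0.05 numbered 10 within letter e. Signs turned for small differences: Fgf2 was 0.005 with array weights, 0.006 with the letter block, 0.089 within e, 0.06 without wild-type arrays 4 and 5 and -0.063 to 0.025 with 1 array left out. Fgf12 was 0.117 with array weights, 0.149 within x, 0.004 without wild-type arrays 4 and 5 and -0.255 to 0.035 with 1 left out (positive without Ezh2-deficient array 1). Fgf10 was 0.072 within x and -0.179 to 0.013 with 1 left out, and Fgf8 0.039 within x. Fgf23 was -0.081 within e, Scn3a -0.036 within x and Scn10a -0.046 within e, -0.047 without wild-type arrays 4 and 5 and -0.023 to 0.105 with 1 left out. The cause was not tested. The filter on dim probe sets left out Fgf10.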
